A study of Mus musculus with 4 samples.

Results

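Scar-associated macrophages and disease-associated microglia are described by a shared set of genes, and 9 of them were followed here in space after brain injury: Trem2, Tyrobp, Gpnmb, Cd9, Cd63, Fabp5, Lgals3, Itgax and Clec7a. The genes were taken by name from a list, with no threshold on a measured value but with earlier results of these data known. Of the 32285 genes in the count tables, 8 of the 9 were found by symbol, and Clec7a was not analysed here. Spatial transcriptomes had been captured on 4 Visium areas, squares of barcoded spots that bind polyadenylated RNA from a tissue slice, with 2 brain slices of 2 mice on each. Wild-type mice were sampled at rest (1 slice) and at 2 days (1 slice), 7 days (2 slices) and 21 days (2 slices) after photothrombotic (PT) injury of the S1 cortex, in which light activates an injected dye and clots the vessels beneath (days post injury, dpi). A further area held 2 slices at 21 dpi from Cthrc1(creER); R26(DTA) mice, called deleter below. Given tamoxifen, these mice are built to lose cells in which the promoter of Cthrc1, a myofibroblast gene, is active, and the study gave the deletion as undetectable and set both slices aside. Mice of the study were of either sex, on a C57BL/6 or mixed background, and 7 to 21 weeks old unless stated otherwise, and no treatment beyond the injury is given for the wild-type mice.

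TREM2 is a lipid-sensing receptor of microglia and macrophages that has no signalling tail of its own and signals through the adaptor TYROBP, also called DAP12. Around amyloid, in demyelination and after injury, microglia that take up lipid and debris turn on a programme that needs TREM2 and includes Cd9, Cd63, Gpnmb, Fabp5, Lgals3, Itgax and Clec7a. Macrophages derived from monocytes switch on much of the same programme in fibrotic liver and lung, where they are called scar-associated. In resting brain several of these genes are nearly silent, while Cd9, Cd63 and Fabp5 are also used by glia, neurons or vessels.

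A spot covers a patch of tissue that can hold several cells, so a level below is the number of unique molecular identifiers (UMIs) of a gene per 10000 UMIs of all genes in the spots summed. Fewer cells of a type and less RNA per cell cannot be told apart in such values. The slices held 827 to 1726 spots and 11332780 to 23677298 UMIs. The median was 12447 to 16158 UMIs per spot in 7 slices, and 2633.5 in the slice at 2 dpi, where 21.7% of spots held fewer than 1000 UMIs. Spots with at least 5 Col1a1 UMIs per 10000, a collagen gene that marks fibroblasts, were taken as fibrotic (distance 0), and every other spot was placed by its number of steps on the hexagonal array from the nearest one: ring (1 to 2 steps), middle (3 to 5) and far (6 or more). Fibrotic spots numbered 112 and 392 in slices 1 and 2 at 7 dpi, 170 and 203 at 21 dpi, 193 and 274 in the deleter slices, 26 at 2 dpi and 3 at rest. Their median depth was 4923.5 and 9206.5 UMIs at 7 dpi against 16903 and 18366 in far spots, but 10828 and 13879 at 21 dpi against 13187 and 12814.5. The tissue carried its labelled brain markers: the summed level of 6 neuronal genes was 67.1 at rest, and 35.6 to 57.2 in the other 7 slices. Apart from rest and 2 dpi, each time and genotype lay on an area of its own, so an effect of the area cannot be told apart from one of time or genotype. The 2 slices that share the first area were assigned to rest and 2 dpi by their outlines in the published figure, since the labels give no order.

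**Figure D1:**
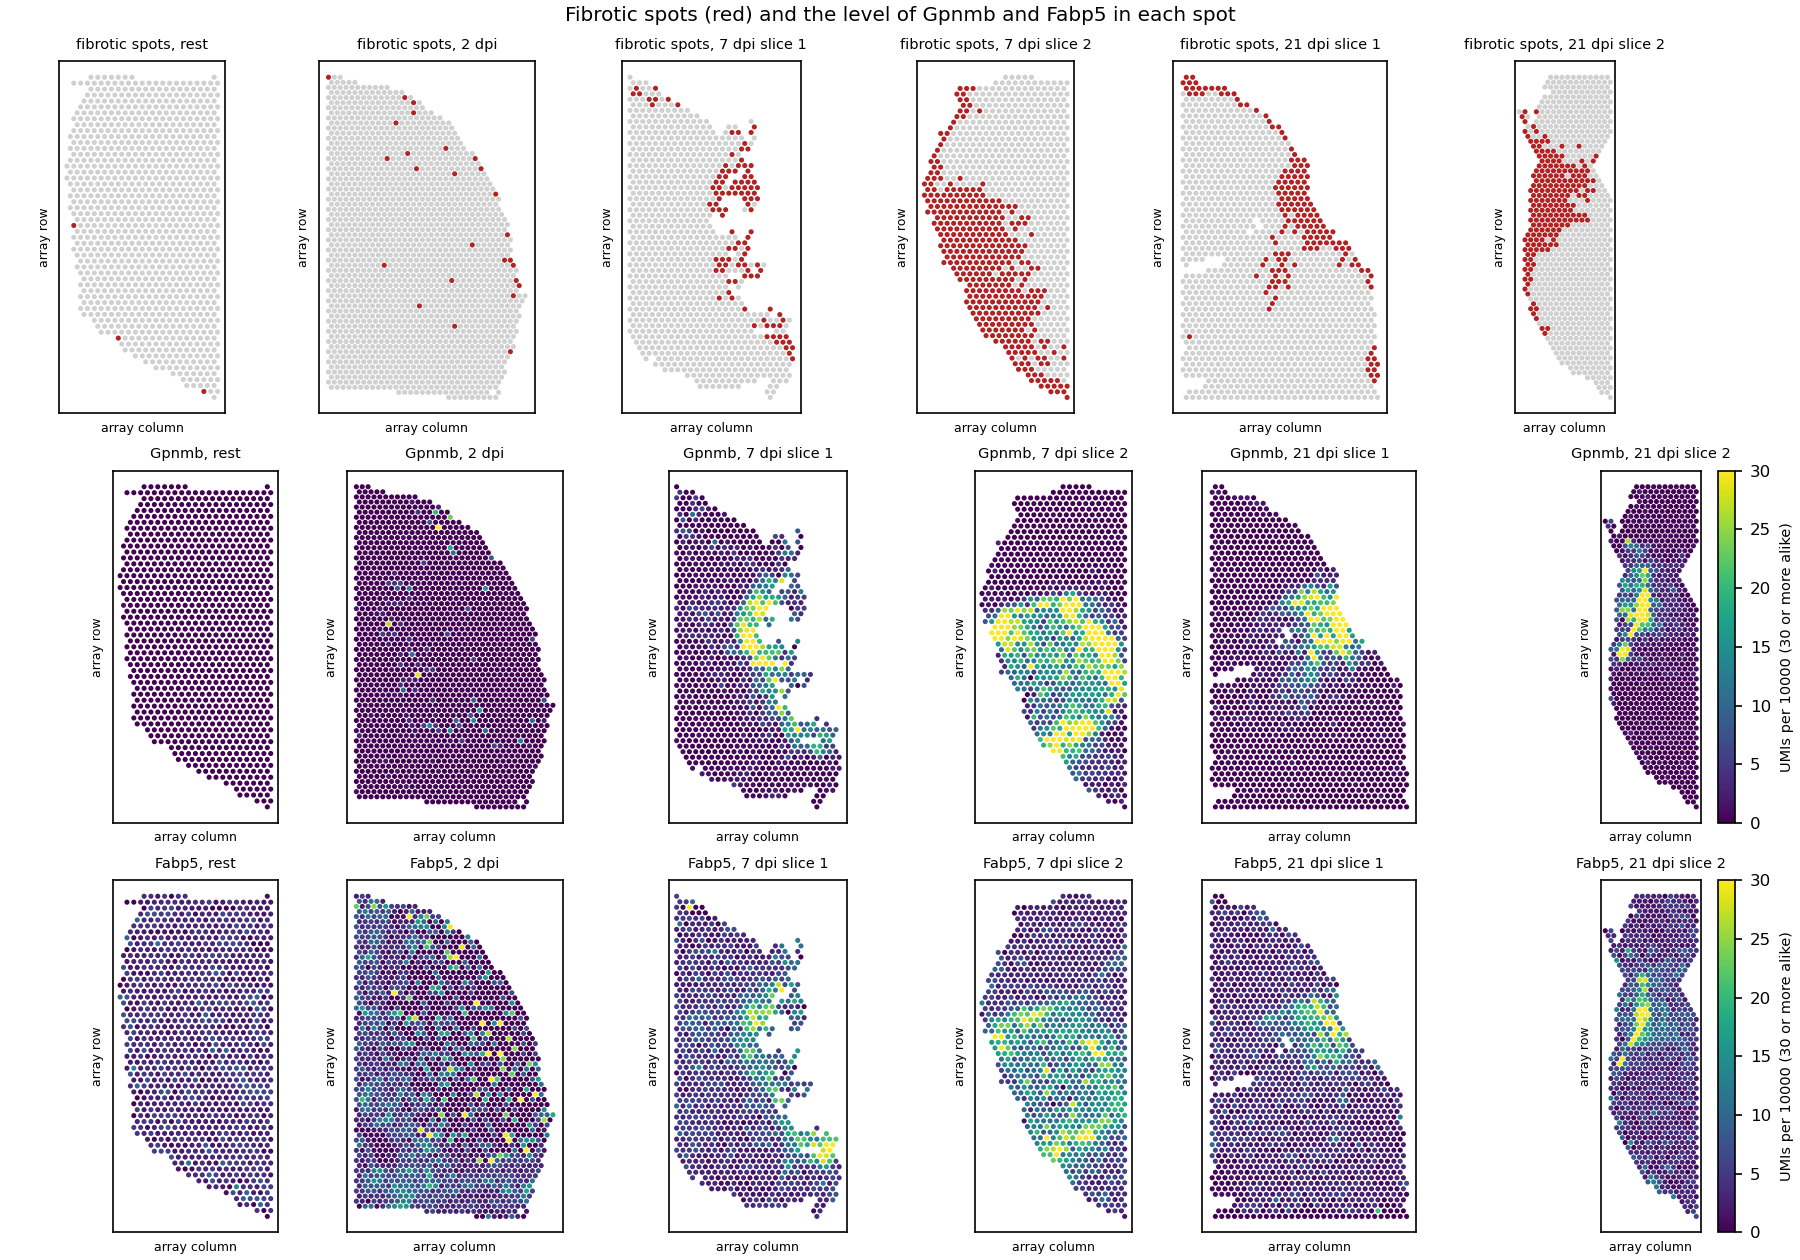
Tissue spots of the 6 wild-type slices drawn at their row and column on the capture array, with fibrotic spots in red (top row) and the level of Gpnmb (middle row) and Fabp5 (bottom row) coloured from 0 to 30 UMIs per 10000. At 7 dpi, 38 of the 74 spots of slice 2 with Gpnmb at 30 or more lay outside fibrotic spots, in a crescent around them, whereas at 21 dpi 26 of 31 spots (slice 1) and 18 of 18 (slice 2) lay within.

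The 8 genes lie on chromosomes 3 (Fabp5), 6 (Gpnmb, Cd9), 7 (Tyrobp, Itgax), 10 (Cd63), 14 (Lgals3) and 17 (Trem2), so they do not form a cluster in the genome. Cd9 had the smallest excess in fibrotic over far spots at 7 dpi and Fabp5 at 21 dpi, but no promoter of Fabp5 was available. The promoters shown are those of the receptor gene, of the pair of genes with the largest changes described below and of Cd9. They are given as the 250 bases before the RefSeq transcription start, on the coding strand of GRCm38.p6 (the assembly also called mm10). Capitals mark matches to GAGGAA (the core of the site of PU.1, the master factor of myeloid cells), TGANTCA (AP-1) or CATGTG (the M-box of MITF-family factors), searched on both strands, where they are found.
Trem2, chr17:48346151-48346400, + strand: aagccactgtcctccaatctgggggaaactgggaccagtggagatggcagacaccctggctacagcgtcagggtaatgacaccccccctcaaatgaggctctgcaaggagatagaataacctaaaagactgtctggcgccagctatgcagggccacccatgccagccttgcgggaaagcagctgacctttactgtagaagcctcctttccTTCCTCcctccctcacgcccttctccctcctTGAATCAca
Gpnmb, chr6:49036268-49036517, + strand: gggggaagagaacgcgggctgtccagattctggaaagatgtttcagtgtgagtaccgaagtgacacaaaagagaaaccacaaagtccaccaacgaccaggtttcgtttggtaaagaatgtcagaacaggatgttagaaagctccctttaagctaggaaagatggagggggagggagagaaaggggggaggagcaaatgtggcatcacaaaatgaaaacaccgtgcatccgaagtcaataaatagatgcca
Lgals3, chr14:47373610-47373859, + strand: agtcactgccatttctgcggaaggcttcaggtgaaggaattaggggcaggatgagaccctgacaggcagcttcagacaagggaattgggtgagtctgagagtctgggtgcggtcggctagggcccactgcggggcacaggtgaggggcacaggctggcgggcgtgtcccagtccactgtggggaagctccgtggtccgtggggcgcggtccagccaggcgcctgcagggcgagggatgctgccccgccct
Cd9, chr6:125494761-125495010, - strand: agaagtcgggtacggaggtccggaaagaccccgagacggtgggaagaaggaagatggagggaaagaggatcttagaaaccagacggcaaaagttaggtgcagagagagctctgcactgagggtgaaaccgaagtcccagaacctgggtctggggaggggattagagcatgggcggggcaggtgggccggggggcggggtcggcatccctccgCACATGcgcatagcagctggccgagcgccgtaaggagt
Trem2 held 1 match to the PU.1 core and 1 to AP-1, Cd9 held 1 M-box, and the windows of Gpnmb and Lgals3 held none of these motifs. Of 6 members with a promoter in the table, 2 held the PU.1 core (Trem2, Cd63) and 2 held AP-1 (Trem2, Itgax). Among all 32851 promoters of this length, 23.3% held the PU.1 core, 6.75% AP-1 and 12.3% the M-box. No member held the E-box CACGTG (6.02% of all promoters) or TATAAA (12.4%). A match is a description of the letters and shows no binding.

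At rest the receptor and its adaptor were low, and both were higher in every injured slice. Trem2 stood at 0.198 UMIs per 10000 at rest, 0.604 at 2 dpi, 3.51 and 4.87 at 7 dpi, and 2.25 and 2.82 at 21 dpi. Tyrobp stood at 0.641, 2.25, 7.79 and 10.2, and 5.14 and 5.71 in the same order. Both genes were therefore highest in the pair of slices at 7 dpi, without overlap with the pair at 21 dpi. How many of all genes separated these pairs was not counted, and no member passed the test given below. Trem2 was 3.06 times its level at rest by 2 dpi (exact 95% binomial interval 2.68 to 3.49, counting error only) and 17.8 and 24.7 times at 7 dpi. Rest and 2 dpi have 1 slice each, so their difference has no replicate check.

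Gpnmb and Lgals3 were almost absent at rest and followed different courses. Gpnmb encodes a transmembrane glycoprotein of lysosomes and phagocytes. Its level was 0.0122 at rest (20 UMIs), 0.195 at 2 dpi, 4.01 and 9.87 at 7 dpi, and 3.89 and 4.08 at 21 dpi. Lgals3 encodes galectin-3, a lectin that binds damaged lysosomes and is secreted by activated macrophages. Its level was 0.0165 at rest (27 UMIs), 1.23 at 2 dpi, 2.65 and 6.15 at 7 dpi, and 2.77 and 2.70 at 21 dpi. By 2 dpi Lgals3 was already at 74.3 times its resting level (50.9 to 113), and Gpnmb at 15.9 times (10.1 to 26.5). From 2 dpi to 7 dpi the order turned, with Gpnmb at 328 and 807 times rest and Lgals3 at 160 and 373 times. Slice 2 at 7 dpi stood well above slice 1 in both genes. Slice 1 lay between the slices at 21 dpi for Gpnmb and just under them for Lgals3.

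Itgax encodes CD11c, the integrin chain of dendritic cells that activated microglia also carry, and it had the fewest UMIs of the 8 genes at rest. It had 2 UMIs at rest and 12 at 2 dpi, a ratio per UMI sequenced of 7.50 with an interval of 1.67 to 69.0. At 7 dpi its level was 0.0999 and 0.240, and at 21 dpi 0.288 and 0.312. Both slices at 7 dpi thus lay under both at 21 dpi, an order that no other member showed. Itgax did not pass the test between these times (adjusted p = 0.529 by edgeR). The number of all genes with this order was not counted.

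At rest Cd9, Cd63 and Fabp5 had a UMI in 54.1%, 75.6% and 96.7% of spots, and Tyrobp in 57.2%. Cd9 encodes a tetraspanin of the cell surface, and stood at 0.704 at rest, 2.63 at 2 dpi, 3.76 and 4.81 at 7 dpi, and 2.91 and 3.25 at 21 dpi. Cd63 encodes a tetraspanin of late endosomes and exosomes, and stood at 1.06, 4.87, 4.63 and 7.30, and 4.12 and 4.89 in that order. Fabp5 encodes a carrier of fatty acids, and stood at 3.34, 5.47, 5.84 and 8.94, and 4.61 and 5.996. Cd63 thus reached at 2 dpi the range it held afterwards, at 4.61 times rest (4.37 to 4.87). Fabp5 changed least, with 1.64 times its resting level at 2 dpi (1.58 to 1.70) and at most 2.68 times in any slice.

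**Figure D2:**
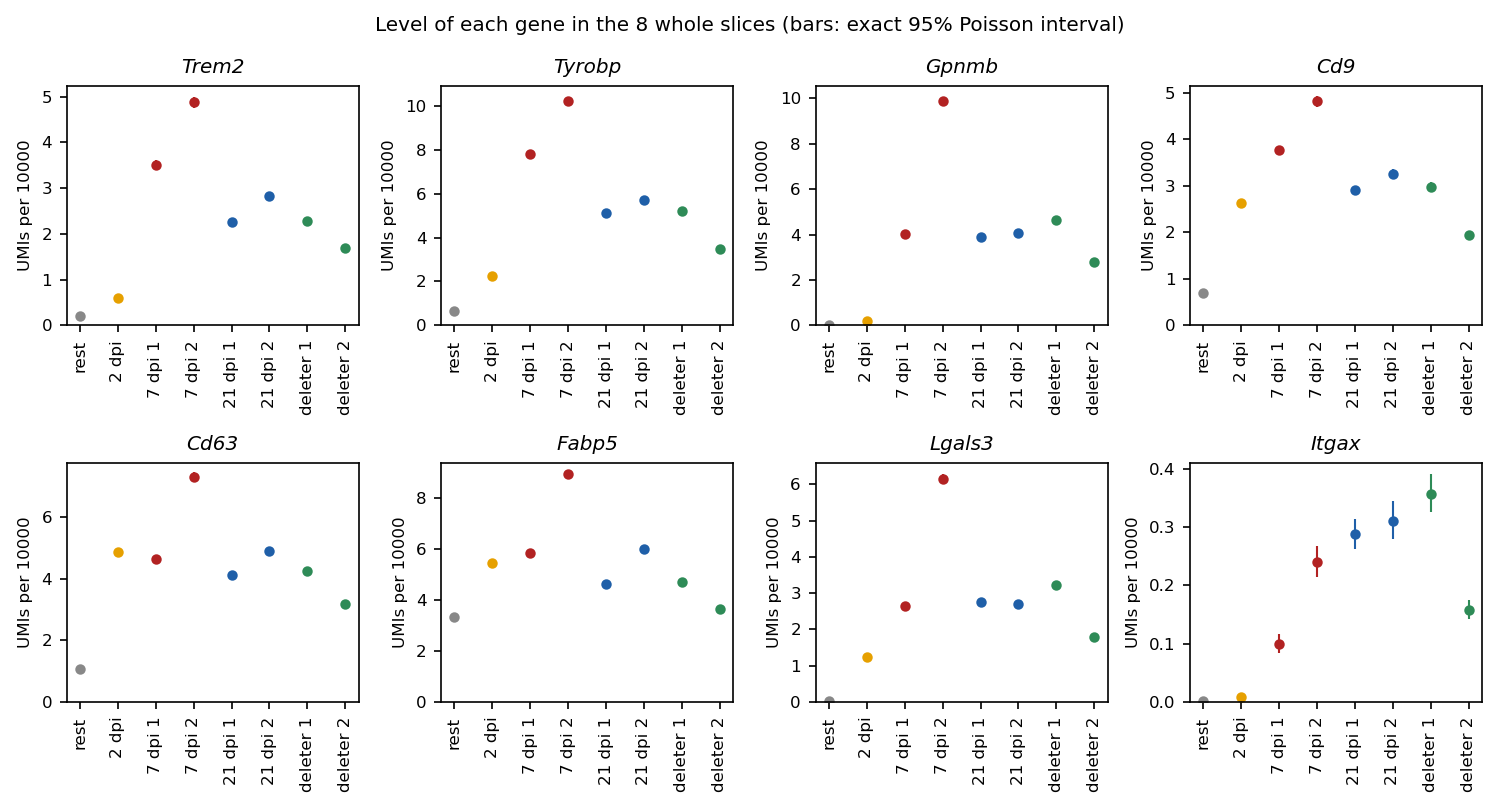
Level of each gene (UMIs per 10000, y axis from 0, a scale for each gene) in each of the 8 whole slices (x axis), with the exact 95% Poisson interval as a bar, which is smaller than the point for most. Slice 2 at 7 dpi is highest for 7 genes, and Itgax is highest in deleter slice 1 at 0.358.

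In whole slices, no member passed the test between 7 and 21 dpi. edgeR's quasi-likelihood test called none of them at an adjusted p of 0.05 (adjusted p from 0.222 for Tyrobp to 0.546 for Cd63), with 3 members under an unadjusted p of 0.05 and 2 called by DESeq2 (Tyrobp and Trem2). The test called few genes of any kind: 6 of 15727 (0.0382%). Of all these genes, 1946 were under an unadjusted p of 0.05, and DESeq2 called 398. Log2 fold changes of 7 over 21 dpi were 0.78 ± 0.18 (SE, 2 slices against 2) for Tyrobp, 0.77 ± 0.21 for Trem2, 0.85 ± 0.42 for Gpnmb and -0.78 ± 0.41 for Itgax. Their median was 0.63, against 0.01 over all genes tested. Among the 6 genes called, Xist was higher at 7 dpi and the Y-linked Ddx3y and Eif2s3y were lower, so the mice of these times also differed in sex. Without slice 1 at 7 dpi, which leaves 1 slice at that time, the log2 fold changes of Gpnmb, Lgals3 and Tyrobp were 1.37, 1.23 and 0.97.

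At 2 dpi the members were described by depth as well as by Col1a1. Only 26 spots reached the Col1a1 minimum, and in them Gpnmb and Itgax had no UMI. Their median depth was 1309 UMIs, so very few Col1a1 UMIs sufficed for the minimum, and a count of 0 says little there. A low number of UMIs outlined another region: 985 spots with fewer than 5000 UMIs formed 1 connected piece. This limit was chosen after the depth map had been seen. Lgals3 stood at 4.44 UMIs per 10000 in spots with 1000 to under 5000 UMIs and at 0.859 in spots with 5000 or more. Among the latter it was lower at greater distance from the RNA-poor piece, from 2.42 at 1 to 2 steps to 0.662 at 3 to 5 and 0.466 at 6 or more. Gpnmb was likewise higher in spots with 1000 to under 5000 UMIs than in those with 5000 or more, on few UMIs (0.792 against 0.123, from 104 and 142 UMIs). Trem2 was at 1.03 against 0.561 in the same classes. The 375 spots with fewer than 1000 UMIs had lower levels than the class with 1000 to under 5000 for all 3 genes, with Lgals3 at 1.31 and Gpnmb at 0.380, and Trem2 at 0.337 (8 UMIs), which is also under its level in the RNA-rich spots.

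The tetraspanins and Fabp5 showed another distribution at this time. Cd9 was lower in spots with 1000 to under 5000 UMIs (2.19) than in those with 5000 or more (2.70), and lowest among the latter next to the RNA-poor piece (1.89 at 1 to 2 steps, 2.94 at 6 or more). Fabp5 was at 5.12 and 5.54 in these classes. Cd63 was nearly even at 4.77 and 4.93, with 6.37 at 1 to 2 steps from the RNA-poor piece. In the spots with fewer than 1000 UMIs these genes had the lowest level of the 3 depth classes, with Cd9 at 1.52, Fabp5 at 3.84 and Cd63 at 2.53. Far from any Col1a1-positive spot, Cd63 was at 4.83 against 1.04 in the slice at rest and Cd9 at 2.86 against 0.729. Cd63 and Cd9 were thus above rest also in tissue far from Col1a1-positive spots. Neutrophil genes were at 1.46 summed over 6 genes at 2 dpi against 0.0147 at rest, where 4 of the 6 had no UMI. Their part in these levels was not tested.

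At 7 and 21 dpi all 8 members were called higher in fibrotic than in far spots. At 7 dpi, where 26.3% of the 14224 genes tested were called higher, the median over the members was a log2 fold change of 2.77, against -0.01 over all genes. At 21 dpi the members had a median of 3.69, against 0.05, with 29.8% of all genes called higher. The test was fitted to sums per slice and zone of the 4 wild-type slices, with the slice as a block. The part of the lower depth of fibrotic spots at 7 dpi in these differences was not tested.

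The sensor pair was several-fold higher in fibrotic than in far spots at both times. Trem2 was at 7.83 and 7.29 in the fibrotic spots of both slices at 7 dpi, and at 1.74 and 0.903 in far spots. At 21 dpi it was at 6.52 and 6.91 against 0.827 and 0.468. These are log2 fold changes of 2.65 ± 0.28 (adjusted p = 1.81e-05) and 3.51 ± 0.29 (1.72e-06) by edgeR. Tyrobp was at 19.5 and 16.5 in fibrotic spots at 7 dpi and 16.0 and 15.0 at 21 dpi, with log2 fold changes of 2.90 ± 0.29 and 3.86 ± 0.31 over far spots. For 10 genes that mark macrophages and microglia of any state, among them Aif1, Csf1r and C1qa, the median was 2.50 at 7 dpi and 3.38 at 21 dpi, with all 10 called higher at both times. Their summed level was 97.7 and 95.4 in fibrotic spots and 24.4 and 14.1 in far spots at 7 dpi, and 92.3 and 96.6 against 13.8 and 6.52 at 21 dpi.

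Gpnmb, Lgals3 and Itgax showed the largest contrasts of the 8. Gpnmb was at 14.6 and 16.7 in fibrotic spots at 7 dpi against 1.02 and 0.462 in far spots, and at 19.4 and 13.5 against 0.442 and 0.257 at 21 dpi. Its log2 fold changes were 4.46 ± 0.37 and 5.70 ± 0.39, which placed it at rank 127 and rank 71 from the top among the 14224 genes. Lgals3 was at 10.4 and 11.3 against 0.754 and 0.255 at 7 dpi, and at 14.1 and 8.48 against 0.428 and 0.173 at 21 dpi (4.51 ± 0.40 and 5.38 ± 0.42). Itgax was at 0.283 and 0.519 against 0.0387 and 0.00797 at 7 dpi, and at 1.21 and 0.729 against 0.0519 and 0.0247 at 21 dpi (4.07 ± 0.46 and 4.68 ± 0.40). In no slice did the fibrotic and far values of these 3 genes come near each other.

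For the genes that uninjured tissue also uses, the contrast was smaller. Cd63 was at 11.3 and 11.9 in fibrotic spots at 7 dpi and at 11.3 and 11.1 at 21 dpi, so the 4 slices lay close together (log2 fold changes over far spots 2.33 ± 0.25 and 2.86 ± 0.26). Fabp5 was at 14.4 and 13.8, and at 12.4 and 12.3 (1.95 ± 0.15 and 2.16 ± 0.16). Cd9 was at 6.45 and 6.89, and at 6.02 and 6.15 (1.67 ± 0.31 and 2.32 ± 0.32). Far from fibrosis, Fabp5 was at 4.04 and 3.71 at 7 dpi and 2.85 and 3.13 at 21 dpi, on either side of its 3.34 at rest. Far Trem2 in the wild-type slices at 7 and 21 dpi, by comparison, was at 2.37 to 8.80 times its level in the whole slice at rest.

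**Figure D3:**
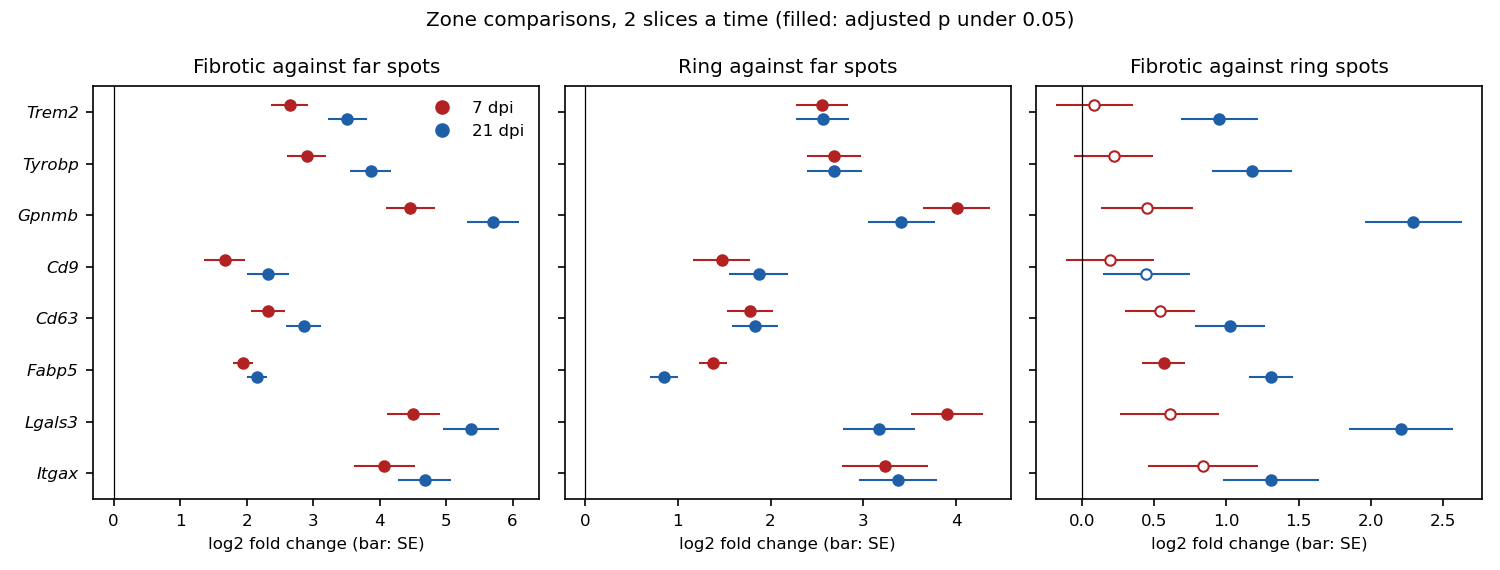
Log2 fold change (x axis) with its SE for the 8 genes (rows) between zones, at 7 dpi (red) and 21 dpi (blue), with 2 slices a time and filled points for an adjusted p under 0.05 by edgeR. All 8 are called in the first and second panels, while in the third 1 is called at 7 dpi and 7 at 21 dpi.

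In the ring of tissue within 2 steps of fibrosis the members were higher than in far spots too, as were general macrophage genes. All 8 members were called higher in ring than in far spots at both times (median log2 fold change 2.62 at each). At 7 dpi 15.5% of all genes were, and at 21 dpi 11.1%. The 10 macrophage and microglia genes were all called at both times (medians 2.28 and 2.32). Of 9 genes of homeostatic microglia, 8 were called at 7 dpi and 9 at 21 dpi. More macrophages and more RNA per cell were not told apart. The ring excess of Trem2 was 2.56 at both times on the log2 scale, with an SE of 0.28. That of Gpnmb was 4.01 ± 0.36 at 7 dpi and 3.41 ± 0.36 at 21 dpi. Fabp5 had the smallest, at 1.38 ± 0.15 and 0.85 ± 0.15. With 1 slice left out in turn, every fit called fewer of all genes higher, and not every member kept the call in each. Leaving out a slice of the same time leaves 1 slice at that time.

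More members passed the contrast of fibrotic with ring spots at 21 dpi than at 7 dpi. Of the 8 genes, 7 were called higher in fibrotic than in ring spots at 21 dpi, all but Cd9, where 16.5% of all genes were called. At 7 dpi 1 was, Fabp5 (0.57 ± 0.15, adjusted p = 0.0352 by edgeR), where 5.17% of all genes were called. At 21 dpi the log2 fold changes were 2.29 ± 0.33 for Gpnmb, 2.21 ± 0.36 for Lgals3, 1.31 ± 0.33 for Itgax, 1.31 ± 0.15 for Fabp5, 1.18 ± 0.28 for Tyrobp, 1.02 ± 0.24 for Cd63 and 0.95 ± 0.27 for Trem2, and 0.45 ± 0.30 for Cd9. Without slice 1 at 21 dpi, which leaves 1 slice at that time, Trem2, Cd63 and Itgax lost the call. Fewer of all genes were called higher there too. At 7 dpi slices 1 and 2 differed: the ratio of fibrotic to ring level was 0.849 and 1.23 for Trem2, 0.910 and 1.39 for Tyrobp, and 1.22 and 1.41 for Gpnmb, against 3.74 and 5.74 for Gpnmb at 21 dpi. The single call at 7 dpi was lost when any 1 of the 4 slices was left out, where fewer of all genes were called higher too. When the fibrotic minimum was 2 Col1a1 UMIs per 10000, 7 members were called at 7 dpi, and 1757 of all 14656 genes were called higher.

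Whether the step differed between the times was tested as an interaction, added after the separate contrasts had been seen. None of the 8 members was called by edgeR (adjusted p from 0.466), nor was any of the 14224 genes (0%). Under an unadjusted p of 0.05 were 5 members and 1183 of all genes, and DESeq2 called 1 member and 15 genes. All 8 estimates were below 0, from -0.25 ± 0.43 for Cd9 to -1.84 ± 0.45 for Gpnmb. The number called rose to 6 with a fibrotic minimum of 2 Col1a1 UMIs per 10000, and that over all genes rose to 332 of 14656. The same held for the excess over far spots, where edgeR called 0 members against 0.0844% of all genes. There 3 members were under an unadjusted p of 0.05, with 0 called by DESeq2 and 4 with the minimum of 2. Over all genes, 1628 were under an unadjusted p of 0.05, DESeq2 called 81 and the minimum of 2 gave 651 of 14656. The zone contrasts and their interactions share the fibrotic sums.

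In fibrotic spots no member passed the test between the times. edgeR called none of the 8 genes between 7 and 21 dpi, where 3.9% of 12912 genes were called in either direction. Of all these genes, 2143 were under an unadjusted p of 0.05, and DESeq2 called 304. Log2 fold changes lay between -0.07 ± 0.19 (Gpnmb) and 0.22 ± 0.16 (Tyrobp) for 7 genes. Itgax was at -1.14 ± 0.29 (adjusted p = 0.0585), the single member under an unadjusted p of 0.05, and DESeq2 called it (1 member). In contrast, 8 of the 20 other genes of the disease-associated and scar-associated programmes were called, 5 higher at 7 dpi and 3 lower. Spp1, which encodes osteopontin, was 2.29 higher on the log2 scale (adjusted p = 5.88e-05 by edgeR), and Plin2, which coats lipid droplets, 1.78 higher (0.00135). The other 3 higher at 7 dpi were Ccl3, Csf1 and Lgals1, and the 3 lower were Apoe, Lyz2 and Fth1, named here after their values were seen. The 10 macrophage and microglia genes and the 12 genes of TREM2 signalling had no call. Neutrophil genes differed as well, with 3 of 4 called lower at 7 dpi, and their summed level in fibrotic spots at 7 dpi was 1.09 and 0.558, against 2.19 and 4.55 at 21 dpi. Their part in the level of Itgax was not tested.

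A level under 0.5 times that of fibrotic spots was reached at fewer steps from fibrosis at 21 dpi than at 7 dpi. This held in both slices of each time for 7 of the 8 genes, all but Itgax. How many of all genes did so was not counted. General macrophage genes differed likewise between fibrotic and ring spots. Of the 10 macrophage and microglia genes, 0 were called at 7 dpi (median log2 fold change 0.11) and 5 at 21 dpi (0.89). At 21 dpi the level of Gpnmb went from 19.4 and 13.5 in fibrotic spots to 7.23 and 3.11 at 1 step and 2.81 and 1.19 at 2 steps. At 7 dpi it was at 13.7 and 11.3 at 1 step, 10.2 and 12.7 at 2 steps, 6.04 and 12.6 at 3 steps and 3.30 and 5.26 at 5 steps. The first step under this limit was step 1 in both slices at 21 dpi, but step 3 and step 5 at 7 dpi. For Trem2 it was step 2 in both slices at 21 dpi. At 7 dpi it was step 5 in slice 1 and steps 6 to 8, pooled as 1 distance, in slice 2. Tyrobp and Cd63 were likewise under this limit at step 2 at 21 dpi and at steps 4 to 5 at 7 dpi. Cd9 was under it at steps 3 and 2 at 21 dpi, and at the pooled steps 6 to 8 in both slices at 7 dpi. Lgals3 was under it at step 1 in both slices at 21 dpi and at steps 3 and 4 at 7 dpi, and Fabp5 at steps 2 and 1 against steps 3 and 5. For Itgax, with 24 UMIs in the fibrotic spots of slice 1 at 7 dpi, the steps of the times overlapped, with steps 4 and 1 at 7 dpi and steps 1 and 2 at 21 dpi. In slice 1 at 7 dpi, Trem2 peaked outside the fibrotic spots, with 9.25 at 2 steps against 7.83 in them.

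In both deleter slices Gpnmb and Lgals3 reached this limit at step 1, and Trem2 and Tyrobp at step 2, the same steps as in wild type at 21 dpi. At greater distance the slices still differed in level, Tyrobp being at 3.82 and 2.57 at 6 to 8 steps at 7 dpi, and at 2.02 and 1.01 at 21 dpi. These profiles are a description. The fibrotic area was larger in slice 2 at 7 dpi (41.4% of spots) than in the others (11.5% to 24.6% in the wild-type slices at 7 and 21 dpi), which sets how much tissue lies within each distance.

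**Figure D4:**
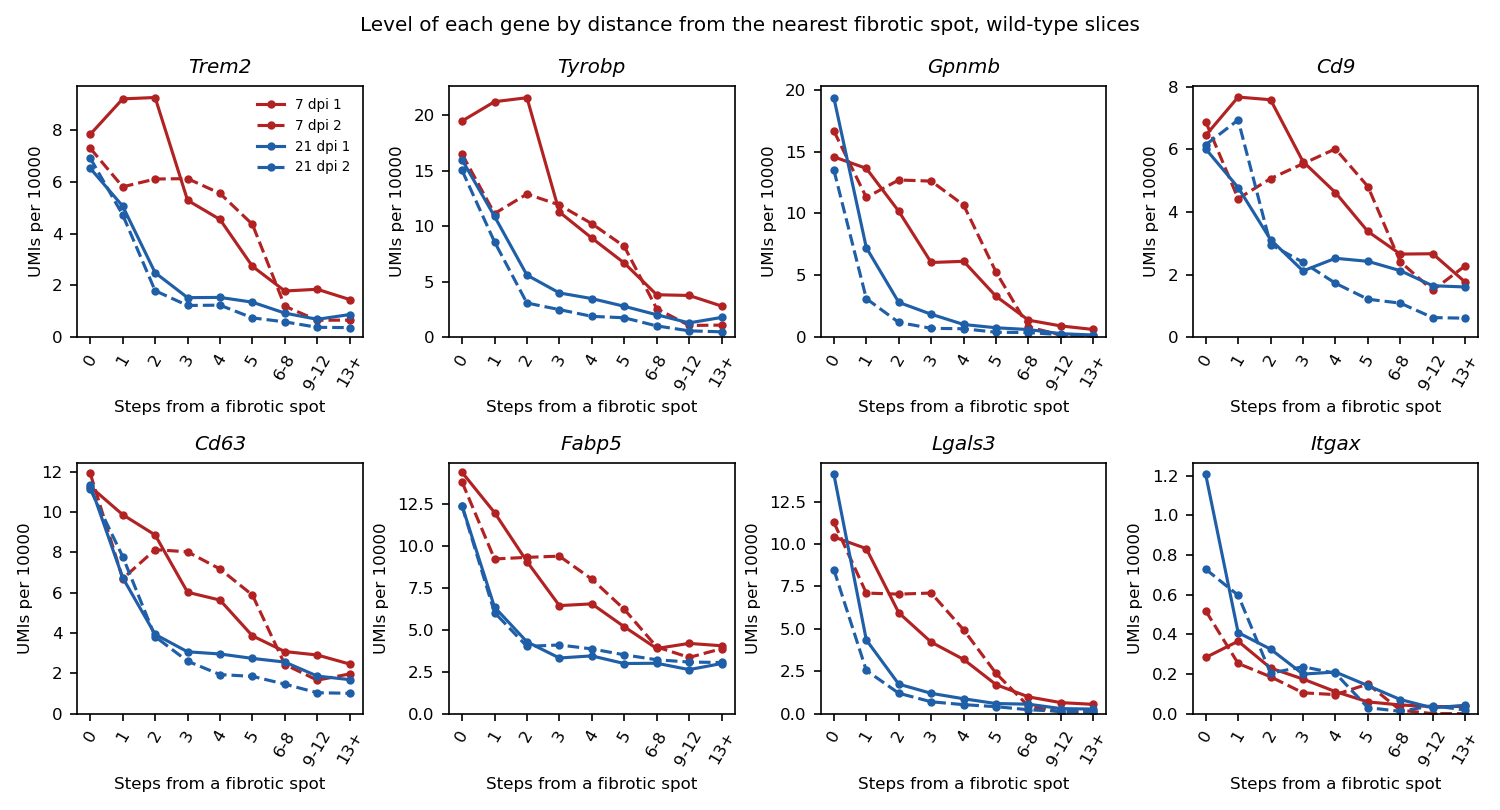
Level of each gene (UMIs per 10000, y axis from 0) by the number of array steps from the nearest fibrotic spot (x axis, 0 is fibrotic) in the 2 slices at 7 dpi (red) and the 2 at 21 dpi (blue). Solid lines are slice 1 and dashed lines slice 2. Gpnmb at 2 steps is at 10.2 and 12.7 at 7 dpi and at 2.81 and 1.19 at 21 dpi.

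Inside fibrotic tissue the members did not simply follow collagen. In slice 2 at 7 dpi, Gpnmb was at 10.9 in spots with 5 to 10 Col1a1 UMIs per 10000, 19.2 with 10 to 20, 21.1 with 20 to 50 and 9.84 with 50 or more. In slice 1 at 21 dpi the same classes gave 16.7, 17.3, 26.5 and 15.3, and in slice 2 they gave 4.28, 13.6, 27.9 and 15.1. Lgals3 and Fabp5 had their highest class at 20 to 50 as well in these 3 slices. Trem2 was at 5.81, 8.97, 8.13 and 4.39 in slice 2 at 7 dpi and at 6.66, 6.99, 6.76 and 3.56 in slice 1 at 21 dpi, so the most collagen-rich spots were lowest there. In slice 2 at 21 dpi Trem2 was at 5.20, 6.62, 8.60 and 8.33, and those spots stayed near its highest class. In these 3 slices the most collagen-rich spots did not hold the highest level of Gpnmb, Lgals3 or Fabp5. Deleter slice 1 differed, with Gpnmb highest at 50 or more (19.6).

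Fibrotic spots at the edge of the slice had lower levels of Gpnmb, Trem2 and Fabp5 than those of the interior at 21 dpi. Edge spots had at least 1 neighbouring array position off the tissue, whether at the brain surface or at a cut side of the piece. Gpnmb was at 10.4 and 3.92 in the fibrotic spots of the edge and at 22.0 and 15.0 in those of the interior. Trem2 was at 3.32 and 3.54 against 7.45 and 7.45. Fabp5 was at 6.26 and 5.64 against 14.2 and 13.4. At 7 dpi slice 2 had the same order (Gpnmb 10.5 against 18.2), and slice 1, where 77 of the 112 fibrotic spots lay at the edge, was nearly even (14.9 against 14.2).

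Set against the macrophage genes, the members divided into 3 patterns. Per 100 UMIs of the 10 pan-macrophage and microglia genes, Tyrobp held between 14.01 and 16.9 UMIs in all 8 slices, and Trem2 between 4.31 and 7.93. Gpnmb went from 0.310 at rest to 1.39 at 2 dpi, 8.68 and 16.1 at 7 dpi and 11.4 and 10.4 at 21 dpi. Lgals3 went from 0.418 to 8.76 by 2 dpi and was at 5.73 to 10.0 in the later wild-type slices. Itgax went from 0.0310 to 0.0655 (on 2 and 12 UMIs), then 0.216 and 0.390, then 0.847 and 0.792. Cd9, Cd63 and Fabp5 were lower from 7 dpi on than at rest, Fabp5 going from 84.4 at rest to 39.1 at 2 dpi and 12.7 to 15.2 in the later wild-type slices. These ratios compare genes within a slice, and show unequal change without saying which cells changed.

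Zones differed in the same ratios. Gpnmb was at 14.9 and 17.5 per 100 macrophage UMIs in fibrotic spots at 7 dpi and at 4.18 and 3.27 in far spots. At 21 dpi it was at 20.96 and 13.99 against 3.19 and 3.95. Trem2 was nearly level, at 8.01 and 7.64 against 7.12 and 6.39 at 7 dpi and at 7.06 and 7.15 against 5.98 and 7.17 at 21 dpi. Fabp5 was at 14.7 and 14.4 against 16.5 and 26.2 at 7 dpi, and at 13.4 and 12.8 against 20.6 and 47.9 at 21 dpi. Lgals3 was at 10.66 and 11.81 against 3.09 and 1.80 at 7 dpi, and at 15.28 and 8.78 against 3.09 and 2.66 at 21 dpi. Tyrobp was at 19.93 and 17.27 against 14.65 and 12.44 at 7 dpi, and at 17.3 and 15.55 against 12.32 and 11.46 at 21 dpi. Cd9 was at 6.60 and 7.22 against 10.1 and 14.3 at 7 dpi, and at 6.52 and 6.36 against 13.6 and 12.6 at 21 dpi. Cd63 was at 11.5 and 12.5 against 11.8 and 14.6, and at 12.3 and 11.5 against 15.9 and 18.7. Relative to macrophage genes, Gpnmb, Lgals3, Itgax and Tyrobp were thus higher in fibrotic than in far spots in all 4 slices. Cd9, Cd63 and Fabp5 were lower there in all 4. For Trem2 the zones overlapped at 21 dpi but not at 7 dpi.

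**Figure D5:**
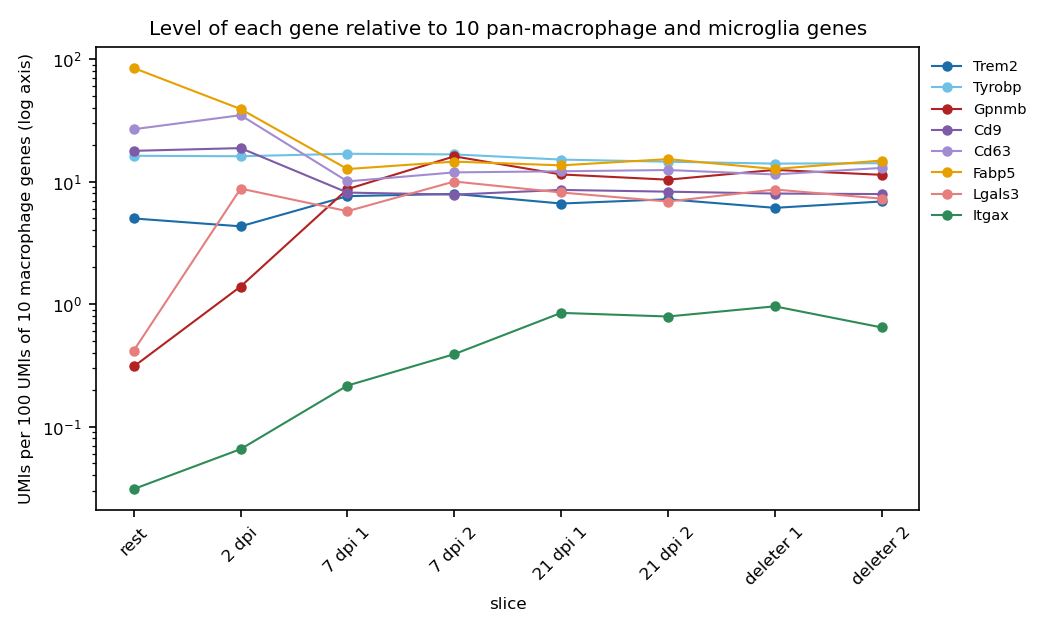
UMIs of each gene per 100 UMIs of 10 pan-macrophage and microglia genes (y axis, log scale) in each whole slice (x axis). Tyrobp stays between 14.01 and 16.9. Gpnmb, Lgals3 and Itgax are higher in every injured slice than at rest, for Itgax at 2 dpi on only 12 UMIs against 2. Fabp5, Cd63 and Cd9 are lower from 7 dpi on than at rest.

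How many spots carried a transcript was compared after each spot was thinned to 2000 UMIs, which left out 777 spots at 2 dpi and 1 to 38 in each of the other slices. Gpnmb was then present in 0.0987% of spots at rest, 5.06% at 2 dpi, 36.7% and 52.9% at 7 dpi and 22.1% and 26.2% at 21 dpi. In fibrotic spots it was present in 80.6% and 80.3% at 7 dpi and 64.1% and 67.0% at 21 dpi. Unthinned, the shares over whole slices were 1.97%, 9.21%, 74.5% and 70.2%, and 44.5% and 53.8%. Fabp5 was present in 48.7% of thinned spots at rest and 47.7% to 72.9% in the later wild-type slices. Itgax was found in 0 of the 1013 thinned spots at rest, which allows a share of up to 0.296% by a count of 3 spots (the exact 95% binomial interval ends at 0.363%), and in 1.97% and 4.12% of spots at 7 dpi and 4.75% and 4.49% at 21 dpi.

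Other genes of the same programme, listed as 20 genes of disease-associated microglia and scar macrophages, differed between zones in the same direction as the members. This list too was chosen with earlier results of these data known, so it is no independent check. In fibrotic against far spots 19 of 20 were called higher at 7 dpi (median log2 fold change 3.01) and 20 of 20 at 21 dpi (3.51). The largest of them at both times was Spp1, at 5.64 (adjusted p = 4.06e-06) and 5.77 (1.60e-06 by edgeR). In ring against far spots 19 and 20 were called, led at 7 dpi by Spp1 (4.51), Plin2 (3.79), Lpl (3.67), which encodes lipoprotein lipase, and Lilrb4a (3.63). For 12 genes of TREM2 signalling, such as the adaptor Hcst, the kinase Syk and the sheddase Adam10, 11 were called higher in fibrotic spots at 7 dpi (median 2.35) and 12 at 21 dpi (2.84).

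Markers of other cells differed between the zones as well. Of 9 homeostatic microglia genes 8 were called higher in fibrotic than in far spots at each time, with medians of 1.46 and 1.64, and their summed level was 34.2 and 27.8 in fibrotic spots at 7 dpi and 18.7 and 21.2 at 21 dpi. Border-associated macrophage genes were called in 5 of 6 at 7 dpi and 6 of 6 at 21 dpi, monocyte genes in 5 of 5 at both, and neutrophil genes in 4 of 4 at both. Among dendritic cell genes, which bear on Itgax, 3 of 6 could be tested, with Ccr7 called higher at 21 dpi and Flt3 called lower at both times, and their summed level in the fibrotic spots of the 4 wild-type slices was 0.0354 to 0.241. Of these genes, Xcr1 and Clec9a were at 0 in the fibrotic spots of slice 1 at 7 dpi. That slice had the fewest (112) and shallowest fibrotic spots of the 4 (median 4923.5 UMIs), so a count of 0 says little there. Fibroblast genes, with Col1a1 that defines the zones among them, were called higher in 6 of 6 at both times (medians 5.28 and 6.04). Endothelial genes, which mark vessels, were called higher in 4 of 5 at 7 dpi (median 1.15) and 5 of 5 at 21 dpi (0.83), with a summed level of 2.27 to 3.32 in fibrotic spots and 1.55 to 2.04 in far spots of the 4 wild-type slices. T and B lineage genes were called higher in 0 of 4 at 7 dpi and 3 of 4 at 21 dpi (median 3.96), with a summed level in fibrotic spots of 0.0708 and 0.0341, and of 1.84 and 2.48. Astrocyte genes were called lower in 2 of 6 at 7 dpi, and at 21 dpi 3 were called higher and 1 lower. Oligodendrocyte genes were called lower in 6 of 6 at 7 dpi (median -1.75) and in 0 of 6 at 21 dpi (-0.53). Neuronal genes were called lower in 6 of 6 at both times. The part of each cell type in the members' levels was not tested.

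By the likeness of their profiles over 31 slice-by-zone sums, the members had partly different nearest genes. Those of Cd9 were shared with Trem2 or Tyrobp. Trem2 was nearest to the complement genes C1qc, C1qa and C1qb (Pearson r = 0.990, 0.989 and 0.987). Tyrobp was nearest to Laptm5, Fcer1g and Cd84. Gpnmb was nearest to Abca1, which exports cholesterol (r = 0.976), Unc93b1 and Itgb5, and Lgals3 to Cyba, Ifi30 and C3ar1. Cd9 was nearest to C1qb, C1qc and Fcer1g (0.970 to 0.964), and Cd63 to Arhgdib, Arpc1b and Rrbp1 (0.978 to 0.975). Itgax was nearest to P2rx4, the class II gene H2-Ab1 and Man2b1 (0.946 to 0.940), and Fabp5 to Psme2, Uap1l1 and Psme1 (0.957 to 0.948). Among the members themselves, r was highest for Trem2 with Tyrobp (0.984) and lowest for Fabp5 with Itgax (0.707). These are correlations of log2 levels across sums of the same 8 slices, which share library and depth, and they carry no test.

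Between deleter and wild-type slices at 21 dpi no member passed the test. edgeR called 0 members and 0 of all 15708 genes tested (0%), with 0 members and 529 genes at an unadjusted p under 0.05, and DESeq2 called 0 members and 12 genes. Log2 fold changes of deleter over wild type were from -0.28 ± 0.18 for Trem2 to -0.02 ± 0.24 for Gpnmb. Trem2 was at 2.28 and 1.68 in the deleter slices against 2.25 and 2.82, and Gpnmb at 4.64 and 2.78 against 3.89 and 4.08, so both pairs overlapped for Gpnmb and for Trem2. In their fibrotic spots Gpnmb was at 15.3 and 13.2 and Fabp5 at 9.22 and 8.22, where the wild-type slices had 12.4 and 12.3 of Fabp5. There Trem2 was at 5.13 and 5.65 against 6.52 and 6.91, and Tyrobp at 11.6 and 12.0 against 16.0 and 15.0. Cd63 was at 9.5 and 9.2 against 11.3 and 11.1, and Cd9 at 5.48 and 4.23 against 6.02 and 6.15. Fabp5, Trem2, Tyrobp, Cd63 and Cd9 were thus lower in both deleter slices, while Gpnmb, Lgals3 and Itgax overlapped. How many of all genes were lower in this way was not counted. Per 100 macrophage UMIs in these spots, Trem2 overlapped (6.54 and 7.34 against 7.06 and 7.15), as did Tyrobp, Cd63 and Cd9. Fabp5 stayed lower in that ratio (11.8 and 10.7 against 13.4 and 12.8). Fibrotic spots were not tested between the genotypes. With 2 slices a group, an undetected difference is not shown to be absent.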

How the data were processed

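Spatial transcriptomes of 8 slices on 4 Visium areas were analysed. The authors aligned reads to mm10 with Space Ranger 2.0.0 and deposited, for each spot, the UMI counts of all genes before any normalization, along with the spot's array position. Spots over tissue were kept and each connected piece was taken as 1 slice of 1 mouse. Doublets do not apply to spots and cell types were not assigned. UMIs were summed per slice, or per slice and zone (at least 20 spots), and tested with edgeR 4.0.16 in R 4.3.3 (quasi-likelihood F test after TMM and filterByExpr, with p-values adjusted by Benjamini-Hochberg over all genes tested, threshold 0.05). Zone fits held the 4 wild-type slices at 7 and 21 dpi, with zone by time and the slice as a block, since zones of a slice share a mouse. Slice numbers pair nothing across times. Slices at rest and 2 dpi were not tested. Each SE was obtained from the log2 fold change and its F statistic. DESeq2 1.42.0 and other settings were alternatives. The test was tried on simulated data with known changes. Intervals are exact Poisson or binomial at 95% and cover counting error only; UMIs count molecules, but spots of a slice are not replicates.

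The members were named in full. Genes of other lists were named only where called with the largest change (up to 8 per comparison), with exceptions stated. The 3 nearest genes of each member were taken by Pearson's r of log2 (level + 0.1) among genes with a mean of at least 0.1. Members and lists were chosen with earlier results of these data known. Promoters and motifs came from RefSeq on GRCm38.p6. The study's spot-level test was not used, and other experiments were not analysed here.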

Additional observations from a re-analysis of the deposited data

How the results depend on the processing

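All 8 members were called in fibrotic against far spots at 7 and at 21 dpi under every alternative run. With 1 slice left out, ring against far spots kept every member's call in some fits and lost calls in others. Each such fit also called fewer of all genes higher. Calls between fibrotic and ring spots at 7 dpi numbered 7 with a Col1a1 minimum of 2 UMIs per 10000, 0 with a minimum of 10, 0 with no replicate block and 0 with each slice left out. There 523 of all 14041 genes were called higher with the minimum of 10, and 369 of 14224 with no replicate block. At 21 dpi, members lost calls in some fits with 1 slice left out, and each called fewer of all genes higher. With no replicate block 6 members were called at 21 dpi, and 1802 of all 14224 genes were called higher. For the fibrotic excess over far spots, 7 against 21 dpi, 4 were called with the minimum of 2. For the excess over ring spots, 2 were called with no filter, 1 by DESeq2, 6 with the minimum of 2 and 1 with fibrotic groups of at least 3 spots. For whole slices at 7 against 21 dpi, DESeq2 called 2, and the fits with 1 slice left out leave 1 slice in a group. Between fibrotic spots of the 2 times, 1 was called (Itgax) with no filter, by DESeq2 and with the minimum of 10, and 0 to 1 with 1 slice left out. The block changed no other call count.

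Over all genes, whole slices at 7 against 21 dpi gave 6 calls by edgeR, 398 by DESeq2 and 267 with no filter, and deleter against wild type gave 0, 12 and 40. With the minimum of 2, fibrotic against ring spots at 7 dpi gave 1757 genes higher, the excess over far spots 651 and that over ring spots 332. The excess over ring spots gave 49 with no filter, 15 by DESeq2 and 12 with fibrotic groups of at least 3 spots. Fibrotic spots of the 2 times gave 1123 with no filter, 304 by DESeq2 and 591 with the minimum of 10.

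Log2 fold changes with 1 slice left out changed sign in the following cases. Lgals3 in whole slices at 7 against 21 dpi ranged from -0.0285 to 1.23, the latter without slice 1 at 7 dpi, which leaves 1 slice at that time. No value of the ranges that follow was called. Deleter against wild type ranged from -0.563 to 0.0220 for Tyrobp, -0.431 to 0.298 for Gpnmb, -0.583 to 0.0281 for Cd9, -0.537 to 0.307 for Lgals3 and -0.837 to 0.331 for Itgax. Fibrotic against ring spots at 7 dpi ranged from -0.250 to 0.366 for Trem2, -0.149 to 0.544 for Tyrobp, -0.257 to 0.623 for Cd9 and -0.0873 to 1.26 for Itgax, each lowest without slice 2 at 7 dpi. The excess over far spots ranged from -1.49 to 0.216 for Lgals3 and -1.71 to 1.42 for Itgax, and that over ring spots from -0.698 to 0.193 for Cd9 and -1.39 to 0.0345 for Itgax. In fibrotic spots at 7 against 21 dpi, Gpnmb ranged from -0.312 to 0.214 and Lgals3 from -0.383 to 0.359. There Gpnmb was at 0.239 with the minimum of 2 and 0.0525 with deleter slices added, Lgals3 at 0.223 and 0.113, and Cd63 at -0.0274 with the minimum of 10. The causes were not tested. Under the alternatives, 1057 of the members' other fold changes kept their direction and their side of the threshold. The 2 slices per group and 1 at rest and 2 dpi limit the comparisons between times, and Itgax is limited by depth, with 2 UMIs at rest. Thinning moved 62 of 64 shares of spots beyond their interval. Drawing fewer UMIs per spot lowers such shares by design, so this count is no check of the results.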
